A study of Arabidopsis thaliana with 8 samples.

Results

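Xylem vessels and fibres are the plant cells that build a thick secondary wall, and the 43 genes described here encode enzymes and regulators of that wall, of lignin and of xylem cell maturation. They were listed one by one by AGI code for their known roles, with earlier results of these data known, and the list uses no threshold on a measured value. They comprise 5 genes of cellulose deposition, 2 fasciclin-like proteins, 7 genes of xylan synthesis, 12 enzymes of monolignol synthesis, 3 laccases, 2 xylem cysteine proteases, 6 NAC factors and 6 MYB factors, out of 22281 genes in the expression table. Of the 43, 41 have a row in the table used, and 37 reached a mean of 1 FPKM (fragments scaled to transcript length and library size) over the 8 libraries and were tested. IRX7, MYB63, MYB85 and MYB103 stayed under that minimum, and SND1 and NST2 were not analysed here.

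The RNA was poly-A selected from Col-0 inflorescence tissue of Arabidopsis thaliana holding inflorescence and floral meristems and flowers up to stage 8, from plants grown in long days of 16 h light at 20 to 22 °C. There were 4 wild-type libraries (replicates 1 to 4) and 4 libraries from the lsh1 lsh3 lsh4 mutant (replicates 5 to 8), so the comparison asks which transcripts differ when these 3 genes of the plant-specific ALOG family are mutated. The design text calls the replicates independent. The labels give neither the alleles nor whether each library had its own plants, and the p-values therefore speak only of the variation among these 8 libraries, part of which may be technical. Of the 3 mutated genes, LSH4 and LSH1 bear out the labels. LSH4 had 22.1 ± 2.08 FPKM in wild-type libraries against 5.51 ± 1.42 in mutants, and LSH1 had 10.1 ± 1.96 and 2.87 ± 0.967 (mean ± SD, n = 4 each). LSH3 had 17.2 ± 5.28 and 13.5 ± 2.35, with overlap between the genotypes, and so does not check the labels.

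A secondary wall is laid down inside the primary wall once a cell has stopped growing, and it consists of cellulose microfibrils in a matrix of xylan, stiffened by lignin. NAC factors (VND6 and VND7 in vessels, NST1 and SND1 in fibres) switch on the MYB factors MYB46 and MYB83, which in turn switch on the genes for cellulose, xylan and lignin. In vessels the same programme ends in death of the cell, in which the proteases XCP1 and XCP2 digest its contents. In a young inflorescence the vessels of the stem tip and of pedicels are where these genes are mainly known to act, whereas the monolignol enzymes also feed other phenylpropanoids.

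No tested gene of the 37 passed limma's moderated test on log2(FPKM + 1) with Benjamini-Hochberg adjustment at 0.05 in either direction, the smallest adjusted p being 0.186. Over all 17706 genes tested, 0.136% were called higher and 0.0508% lower in the mutant. At an unadjusted limma p under 0.05, 9 of the 37 were higher and 0 lower, against 6.91% and 5.62% of all genes. The 9 were CTL2, IRX8, IRX15, HCT, F5H1, CAD4, LAC4, LAC17 and NST1. That count depended on single libraries and ran from 3 to 13 as 1 library was left out. It was 3 without mutant replicate 6, near the 7.27% of all genes in the same fit. It was 4 without wild-type replicate 2 (4.76% of all genes) or mutant replicates 5 (5.44%) or 7 (6.04%). Without wild-type replicate 4 it was 5 (6.1%). It rose to 13 without wild-type replicate 3 (8.28%) or mutant replicate 8 (6.71%). The mutant value was above wild type for 32 of the 37, against 47.6% of all genes (52.4% were negative), with a median log2 fold change of 0.33 (range -0.21 to 0.84) against -0.01 for all genes. Without wild-type replicate 4 the median was 0.15. The genes share libraries and vary together, so these shares describe the list and give no test of it. In bulk tissue, a change in the number of cells of a type and a change in RNA per cell cannot be told apart.

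The median was positive in every role, and the size and the split of signs varied. Every tested gene for cellulose (5 of 5), xylan (6 of 6), fasciclin-like proteins (2 of 2), laccases (3 of 3), proteases (2 of 2) and NAC factors (4 of 4) had a positive value. Of the 3 MYB factors tested, 2 were positive and 1 negative, with a median of 0.12. The 12 monolignol enzymes split into 8 positive and 4 negative with a median of 0.13, while the other 25 genes had 24 positive values and a median of 0.41. The difference between these medians was not tested. The calls depended on 1 setting: with limma's library weights, 14 of the 37 genes were called higher, against 7.14% of all genes, with a weight of 4.55 for wild-type replicate 2, 4.38 for mutant replicate 7 and 0.29 to 0.958 for the others.

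**Figure D1:**
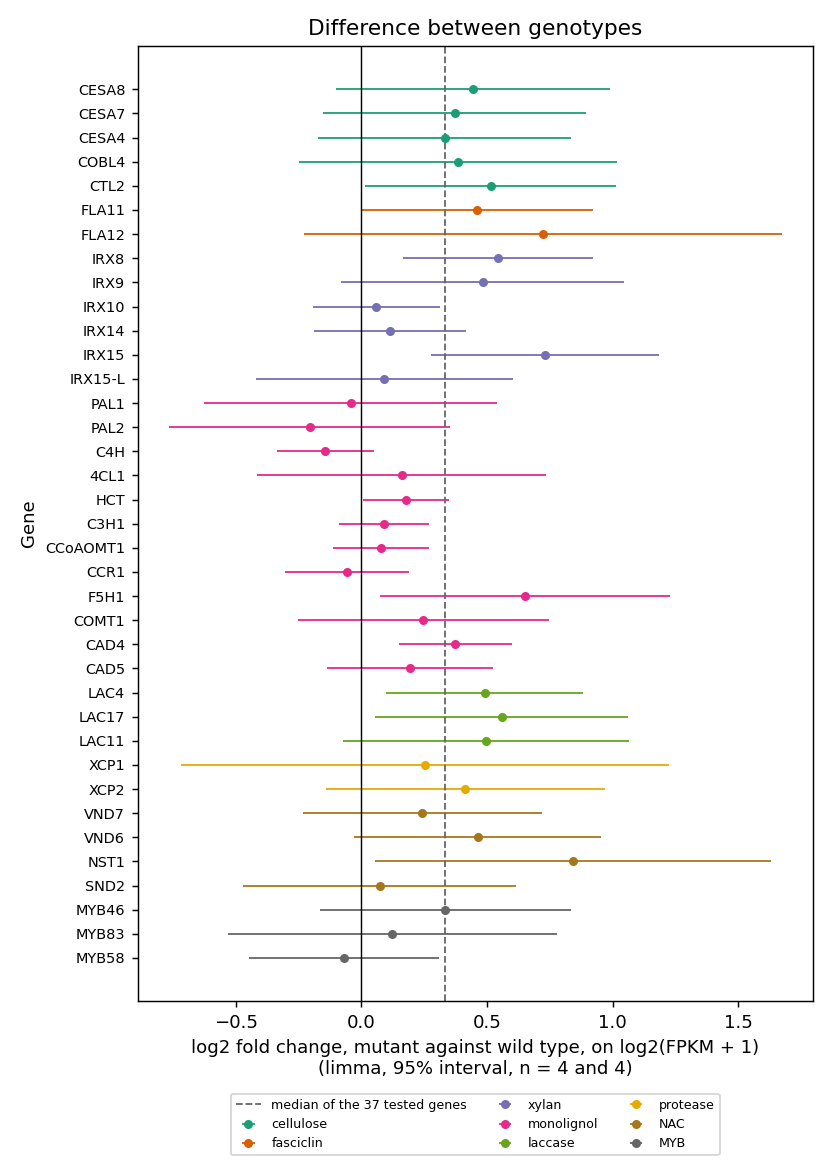
Fold change, mutant over wild type, on the log2(FPKM + 1) scale for the 37 tested genes, coloured by role, with 95% limma intervals (n = 4 and 4). Points lie right of 0 for 32 genes, and the dashed line marks the median of 0.33.

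The cellulose synthases CESA4, CESA7 and CESA8 are the catalytic subunits of the secondary wall complex. CESA8 (AT4G18780) had 11.3, 9.06, 11.3 and 5.02 FPKM in wild-type replicates 1 to 4 and 12.0, 15.1, 13.5 and 9.40 in mutant replicates 5 to 8. CESA7 (AT5G17420) had 7.03, 5.78, 7.40 and 3.47 FPKM in wild type and 8.66, 9.38, 8.05 and 5.29 in the mutant. CESA4 (AT5G44030) had 7.81, 7.02, 8.03 and 4.13 FPKM in wild type and 7.64, 11.8, 8.90 and 6.48 in the mutant. In all 3 the lowest library was wild-type replicate 4, the highest was mutant replicate 6, and the genotypes overlapped. In FPKM, CESA8 was 1.38 to 1.78 times CESA7 and CESA4 was 0.883 to 1.26 times CESA7 over the 8 libraries. Their log2 fold changes were 0.44, 0.37 and 0.33 for CESA8, CESA7 and CESA4, with limma adjusted p-values of 0.483, 0.535 and 0.562.

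The primary wall synthases served as a comparison within the same libraries. CESA1, CESA3 and CESA6 summed to 262, 245, 291 and 236 FPKM in wild type and 233, 281, 257 and 259 in the mutant. The secondary wall trio amounted to 9.97%, 8.91%, 9.18% and 5.33% of that sum in wild type and to 12.1%, 12.9%, 11.8% and 8.17% in the mutant. Mutant replicates 5, 6 and 7 lay above every wild-type library, and mutant replicate 8 lay below wild-type replicates 1 to 3. Of 9 primary wall genes tested, 3 had positive and 6 negative values (median -0.04), and 0 passed limma at an adjusted or an unadjusted 0.05. The smallest p-values among them were those of CESA5, with 53.4 ± 5.79 FPKM in wild-type libraries against 46.5 ± 3.26 in mutants (limma adjusted p = 0.425), and of CSI1, which links synthase complexes to microtubules, with 27.3 ± 2.08 and 29.6 ± 2.57 (limma adjusted p = 0.601).

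CTL2 and COBL4 act with the synthases in cellulose assembly, the first a chitinase-like protein and the second a membrane-anchored COBRA-like protein. CTL2 (AT3G16920) had 12.4, 8.93, 14.9 and 9.11 FPKM in wild type and 16.0, 23.5, 15.9 and 11.7 in the mutant. Only mutant replicate 8 fell inside the wild-type range. Its log2 fold change was 0.51 (SE 0.22, limma adjusted p = 0.385). COBL4 ran from 2.36 to 7.43 FPKM in wild-type libraries, against 4.33 to 7.37 in mutants.

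FLA11 and FLA12 are fasciclin-like arabinogalactan proteins of the stem secondary wall. FLA11 (AT5G03170) had 59.0, 48.9, 63.2 and 38.2 FPKM in wild type and 73.0, 85.8, 81.9 and 49.8 in the mutant. Mutant replicates 5 to 7 exceeded all wild-type libraries, and mutant replicate 8 fell among them. The log2 fold change was 0.46 (SE 0.20, limma adjusted p = 0.401). FLA12 varied more, from 10.1 to 30.4 FPKM in wild-type libraries, against 12.9 to 45.3 in mutants, with the lowest value in wild-type replicate 4 and the next lowest in mutant replicate 8.

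Among the tested xylan genes, IRX15 and IRX8 had the largest differences and also the lowest means, 2.40 and 1.76 FPKM over the 8 libraries. IRX15 encodes a protein of the DUF579 family needed for normal xylan deposition, and IRX8 a glycosyltransferase linked to the sequence at the reducing end of xylan. IRX15 (AT3G50220) had 2.26, 0.958, 1.85 and 1.23 FPKM in wild type and 2.55, 4.30, 3.06 and 3.04 in the mutant. All 4 mutant libraries lay above all 4 wild-type libraries, with a gap of 2.26 to 2.55 FPKM between the groups. Its mutant mean was 2.06 times the wild-type mean, with a log2 fold change on log2(FPKM + 1) of 0.73 (SE 0.20, 95% interval 0.28 to 1.19), and limma gave an adjusted p of 0.191. Non-overlapping genotypes with a higher mutant occurred in 2 of the 37 genes (IRX15 and CAD4), against 4.15% of all genes, and none of the 37 had the reverse, against 3.74%.

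IRX8 (AT5G54690) had 1.33, 1.07, 1.56 and 0.9999 FPKM in wild type and 1.54, 2.73, 2.52 and 2.35 in the mutant. Mutant replicate 5 fell just under the highest wild-type library, and the other mutants lay above all of them. The mean ratio was 1.84, and the log2 fold change was 0.54 (SE 0.17, 95% interval 0.16 to 0.92, limma adjusted p = 0.235). The authors' deposited table lists IRX8 with a log2 fold change of 0.89 and an adjusted p of 0.0283, and IRX15 with 1.05 and 0.0370. That table holds 3 of the 37 genes, all 3 higher (IRX8, IRX15 and CAD4), against 2.37% of the genes tested here listed as higher and 1.77% as lower.

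The other xylan genes had smaller fold changes. IRX9, IRX10 and IRX14 belong to the machinery that extends the xylan backbone. IRX9 ran from 2.004 to 4.58 FPKM in wild-type libraries, against 3.80 to 7.03 in mutants (log2 fold change 0.48, limma adjusted p = 0.463). IRX14 (AT4G36890), the most abundant of the group, had 18.4, 14.4, 16.2 and 13.6 FPKM in wild type and 16.5, 21.2, 16.5 and 14.2 in the mutant, a log2 fold change of 0.11 (limma adjusted p = 0.755) that ran from 0.011 to 0.19 as single libraries were left out. IRX10 and IRX15-L, the close relative of IRX15, had log2 fold changes of 0.06 and 0.09. IRX15-L ordered its libraries unlike IRX15: wild-type replicate 1 was its highest with 11.5 FPKM and mutant replicate 5 its lowest with 5.86. IRX7 stayed between 0.127 and 1.1998 FPKM in all libraries.

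The 250 bases upstream of the annotated start were read for all 43 genes from the RefSeq genome TAIR10.1 and searched on both strands. The first motif set was the SMRE, the sites of MYB46 and MYB83, in 8 spellings of 7 bases. Those with A in the middle were ACCAAAC and ACCAAAT together with ACCAACC and ACCAACT, and those with T were ACCTAAC and ACCTAAT together with ACCTACC and ACCTACT. At least 1 of them was in 21 of 43 windows (48.8%), against 29.4% of 27443 protein-coding genes. The AC elements of lignin genes (ACCTACC with ACCAACC and with ACCTAAC), which are part of that set, were in 9 windows (20.9%), against 6.1% of all, and the 12 monolignol genes held them in 5. The tracheary element motif TERE (CTT, any base, AAAGC, any base and A), known from targets of VND6 and VND7, was in 3 windows (CESA4, FLA11 and XCP1), against 0.4% of all. The motifs are known from regulators or genes of this same pathway, so their shares in this list give no independent test of it. A match is a run of letters and not a shown binding site. The 5 windows printed here come from 4 roles, hold a match and overlap no other gene. Each reads 5′ to 3′ in the direction of its gene and ends at the base before the start, with the matches in capitals. IRX8 (chr5:22221969-22222218, minus strand) has ACCTAAC ending 219 bases before the start. IRX15 (chr3:18618817-18619066, minus strand) has ATTAGGT, which is ACCTAAT on the other strand, 6 bases before the start. C3H1 (chr2:17060653-17060902, minus strand), a monolignol enzyme, has 3 matches. LAC11 (chr5:779425-779674, minus strand), a laccase, has ACCAACC 55 bases before the start. XCP1 (chr4:16810232-16810481, plus strand), the vessel protease, has no SMRE spelling and holds the tracheary motif as CTTCAAAGCCA 65 bases before the start.
IRX8: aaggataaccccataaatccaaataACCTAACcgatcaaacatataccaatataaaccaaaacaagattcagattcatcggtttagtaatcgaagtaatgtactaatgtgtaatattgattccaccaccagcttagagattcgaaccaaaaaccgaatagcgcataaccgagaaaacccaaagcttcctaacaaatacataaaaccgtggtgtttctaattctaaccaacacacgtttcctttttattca
IRX15: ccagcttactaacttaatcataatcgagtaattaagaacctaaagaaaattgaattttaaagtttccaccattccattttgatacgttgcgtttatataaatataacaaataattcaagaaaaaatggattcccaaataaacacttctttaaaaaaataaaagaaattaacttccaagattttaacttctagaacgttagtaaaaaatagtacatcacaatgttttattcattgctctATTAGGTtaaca
C3H1: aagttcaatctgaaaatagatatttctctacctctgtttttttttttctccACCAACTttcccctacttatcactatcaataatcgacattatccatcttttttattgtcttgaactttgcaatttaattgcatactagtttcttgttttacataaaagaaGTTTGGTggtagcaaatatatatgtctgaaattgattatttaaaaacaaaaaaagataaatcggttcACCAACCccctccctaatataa
LAC11: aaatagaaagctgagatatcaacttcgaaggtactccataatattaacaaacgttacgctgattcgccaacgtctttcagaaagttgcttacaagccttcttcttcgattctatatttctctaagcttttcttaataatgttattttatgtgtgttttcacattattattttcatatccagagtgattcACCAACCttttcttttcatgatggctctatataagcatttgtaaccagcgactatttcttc
XCP1: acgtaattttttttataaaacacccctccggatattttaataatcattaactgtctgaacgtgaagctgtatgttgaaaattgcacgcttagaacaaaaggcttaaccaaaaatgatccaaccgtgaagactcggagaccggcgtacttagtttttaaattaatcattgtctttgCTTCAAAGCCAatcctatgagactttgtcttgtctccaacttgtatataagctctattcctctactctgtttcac
The genes whose windows are printed did not share a size of difference: their log2 fold changes were 0.54 for IRX8, 0.73 for IRX15, 0.09 for C3H1, 0.50 for LAC11 and 0.25 for XCP1.

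Monolignol synthesis starts with PAL, C4H and 4CL, the steps that all phenylpropanoids share. PAL1 (AT2G37040) had 53.0, 32.2, 22.6 and 21.7 FPKM in wild type and 30.6, 26.1, 27.5 and 34.1 in the mutant. PAL2 had 66.0, 38.9, 28.5 and 27.0 FPKM in wild type and 34.0, 30.7, 32.4 and 32.7 in the mutant. Wild-type replicate 1 was the highest library for both, and the other 7 libraries lay far closer together. The same library was highest for C4H (188 FPKM, against 140 to 162 in the others) and for 4CL1 (36.7 FPKM, against 16.2 to 33.5). Log2 fold changes were -0.04 for PAL1, -0.21 for PAL2, -0.14 for C4H and 0.16 for 4CL1, none of them past the limma threshold.

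The libraries with high PAL levels differed also in touch and early stress genes. The 11 genes of that list (TCH2, ZAT12, WRKY40 and others) summed to 1466, 649, 294 and 127 FPKM in wild type and to 183, 200, 167 and 84.8 in the mutant. PAL1, PAL2, C4H and 4CL1 summed to 344, 258, 214 and 223 FPKM in wild type and to 245, 222, 228 and 247 in the mutant. Wild-type replicates 1 and 2 were thus first and second on both sums. Of 9 stress genes tested, all 9 had negative values (median -1.78) and 0 passed limma's adjusted test. At an unadjusted limma p under 0.05, 6 were lower in the mutant, against 5.62% of all genes. Non-overlapping genotypes with a lower mutant occurred in 5 of them, against 3.74% of all genes. The authors' deposited table holds 6 of the 11 genes of this list. Of all genes tested here, it lists 2.37% as higher and 1.77% as lower. CBF1 was at 0 in mutant replicate 8, and no other gene of the list was at 0. The part of these genes in the monolignol values was not tested.

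The middle of the pathway runs through shikimate esters and a methylation step. HCT, which makes the ester used by C3H1, had 51.2 ± 4.62 FPKM in wild-type libraries against 57.9 ± 1.99 in mutants (log2 fold change 0.18, limma adjusted p = 0.383). C3H1 stayed between 36.7 and 45.7 FPKM in all 8 libraries. CCoAOMT1 (AT4G34050), a methyltransferase and the most abundant of the 37 genes, had 259, 237, 204 and 220 FPKM in wild type and 254, 243, 234 and 236 in the mutant. Its genotypes overlapped, with a log2 fold change of 0.08 (limma adjusted p = 0.731) that ran from 0.022 to 0.14 as single libraries were left out. CCR1, the first enzyme committed to lignin, had 80.7 ± 8.68 and 77.6 ± 9.40 FPKM.

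The last steps shape the kind of lignin. F5H1 and COMT1 lead to syringyl units, and CAD4 and CAD5 reduce the aldehydes to alcohols. F5H1 (AT4G36220) had 10.2, 12.3, 25.7 and 19.0 FPKM in wild type and 24.7, 30.5, 24.6 and 22.2 in the mutant. Wild-type replicates 1 and 2 were below the rest, and replicate 3 lay within the mutant range. Its log2 fold change was 0.65 (limma adjusted p = 0.353). COMT1 ran from 82.4 to 129 FPKM in wild-type libraries, against 86.8 to 182 in mutants, and CAD5 from 24.3 to 39.2 and from 31.0 to 39.5.

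CAD4 (AT3G19450) had the smallest p of the 37 genes. It had 23.5, 20.8, 18.4 and 20.5 FPKM in wild type and 31.8, 25.7, 25.4 and 26.3 in the mutant. Every mutant library exceeded every wild-type library, and mutant replicate 5 stood above the other mutants. The log2 fold change was 0.37 (SE 0.10, 95% interval 0.15 to 0.60), and limma gave an adjusted p of 0.186. In the authors' deposited table CAD4 has a log2 fold change of 0.39 and an adjusted p of 0.0352.

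Laccases oxidise monolignols in the wall so that they join into lignin. LAC4 (AT2G38080) had 8.97, 7.25, 9.41 and 5.71 FPKM in wild type and 10.1, 14.3, 11.8 and 9.29 in the mutant. LAC17 (AT5G60020) had 12.8, 8.32, 13.1 and 8.43 FPKM in wild type and 14.9, 22.6, 16.3 and 11.3 in the mutant. In both, mutant replicate 6 was highest and only mutant replicate 8 fell inside the wild-type range. Log2 fold changes were 0.49 for LAC4 (SE 0.17, limma adjusted p = 0.303) and 0.56 for LAC17 (limma adjusted p = 0.358). LAC11 ran from 3.86 to 9.56 FPKM in wild-type libraries, against 7.50 to 10.6 in mutants, a log2 fold change of 0.50.

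XCP2 (AT1G20850), one of the papain-like proteases of dying vessels, had 92.5, 66.0, 94.6 and 47.5 FPKM in wild type and 97.5, 124, 104 and 70.0 in the mutant. Mutant replicates 5 to 7 exceeded all wild-type libraries, and mutant replicate 8 lay below wild-type replicates 1 and 3. The log2 fold change was 0.41 (SE 0.24, limma adjusted p = 0.514), and 0.22 without wild-type replicate 4. XCP1 (AT4G35350) had 31.0, 21.7, 39.4 and 11.8 FPKM in wild type and 29.5, 50.1, 31.3 and 14.2 in the mutant, again lowest in wild-type replicate 4 and next lowest in mutant replicate 8. XCP2 was 2.40 to 4.92 times XCP1.

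**Figure D2:**
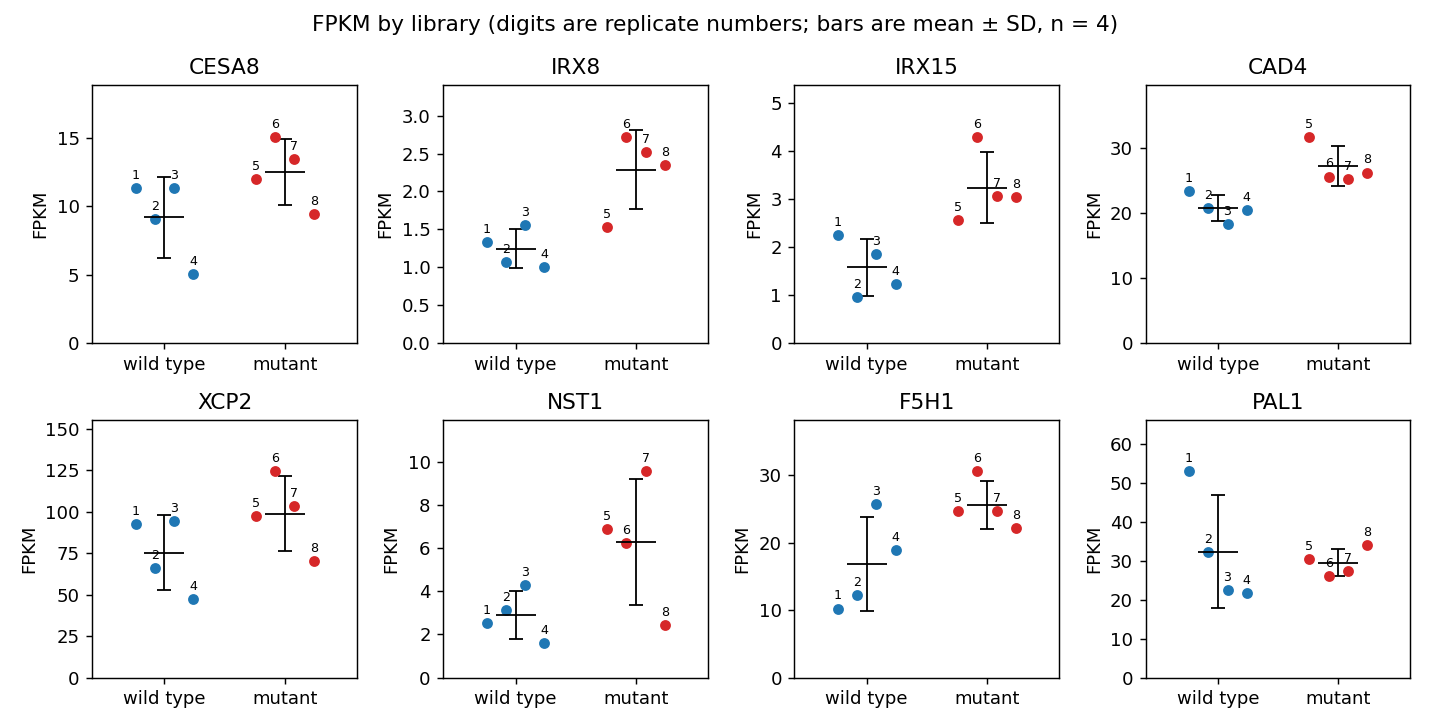
FPKM in each of the 8 libraries for selected genes, one panel per gene, with replicate numbers beside the points and bars for mean ± SD (n = 4). IRX15 and CAD4 show mutant libraries wholly above wild type, whereas the other panels overlap.

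The tested regulators were low, with means over the 8 libraries between 1.82 and 5.14 FPKM. NST1 (AT2G46770), a switch of fibre walls, had 2.52, 3.15, 4.27 and 1.62 FPKM in wild type and 6.90, 6.25, 9.56 and 2.46 in the mutant. Mutant replicates 5 to 7 lay above all wild-type libraries, and mutant replicate 8 lay below 3 of them. Its mean ratio was 2.18, and its log2 fold change of 0.84 (SE 0.35, 95% interval 0.06 to 1.63) was the largest of the 37 on log2(FPKM + 1), with a limma adjusted p of 0.371. With 0.1 added in place of 1, the log2 fold change was 1.02 for NST1 and 1.04 for IRX15. The vessel switch VND6 ran from 1.75 to 3.57 FPKM in wild-type libraries, against 2.86 to 5.59 in mutants (log2 fold change 0.46). VND7, the protoxylem vessel switch, stayed between 0.993 and 3.02 FPKM in all libraries, and SND2, which acts below NST1 and SND1, had a log2 fold change of 0.07.

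MYB46 and MYB83 act redundantly as second-level switches. MYB46 (AT5G12870) had 2.79, 2.49, 2.81 and 1.06 FPKM in wild type and 3.46, 3.44, 3.01 and 2.31 in the mutant. Mutant replicate 8 alone overlapped wild type, and the log2 fold change was 0.33 (limma adjusted p = 0.555), and 0.12 without wild-type replicate 4. MYB83 had a log2 fold change of 0.12. MYB58 (AT1G16490), an activator of lignin genes, had 6.67, 4.15, 4.84 and 5.46 FPKM in wild type and 4.01, 4.77, 4.62 and 6.61 in the mutant, with overlapping genotypes and a log2 fold change of -0.07 (limma adjusted p = 0.895). MYB63, MYB85 and MYB103 stayed between 0.1003 and 1.17 FPKM.

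The libraries differed from one another within each genotype in a pattern shared by many of these genes and in part by genes outside the list. Of the 37 genes, wild-type replicate 4 was the lowest wild-type library in 24 (64.9%), against 27.9% of all genes tested. Among the mutants, replicate 6 was highest in 22 (59.5%, against 30.6%) and replicate 8 lowest in 22 (59.5%, against 35%). Leaving out the monolignol enzymes, wild-type replicate 4 was lowest in 20 of 25, mutant replicate 6 highest in 19 and mutant replicate 8 lowest in 19. Other lists shared this order in part or reversed it. Among the 9 primary wall genes, wild-type replicate 4 was lowest in 7 (77.8%) and mutant replicate 6 highest in 7. Their lowest mutant library was replicate 5 in 7 genes and replicate 8 in 2. Among the 9 touch and early stress genes tested, wild-type replicate 4 was lowest in 9, mutant replicate 8 lowest in 6 and mutant replicate 6 highest in 3. Of the 6 phloem genes, mutant replicate 6 was highest in 4, mutant replicate 8 lowest in 4 and wild-type replicate 4 lowest in 1. Mutant replicate 6 was instead lowest in 7 of 7 flavonoid branch genes and in 6 of 7 meristem and young flower genes, against 28.7% of all genes. In the meristem and young flower list, wild-type replicate 4 was highest of the wild-type libraries in 6, against 31.2% of all genes. Among the 40 other secondary wall, lignin and xylem genes tested, wild-type replicate 4 was lowest in 24 (60%), mutant replicate 6 highest in 15 (37.5%) and mutant replicate 8 lowest in 21 (52.5%). The 12 monolignol enzymes instead had wild-type replicate 1 as their highest wild-type library in 9 (75%, against 28% of all genes).

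**Figure D3:**
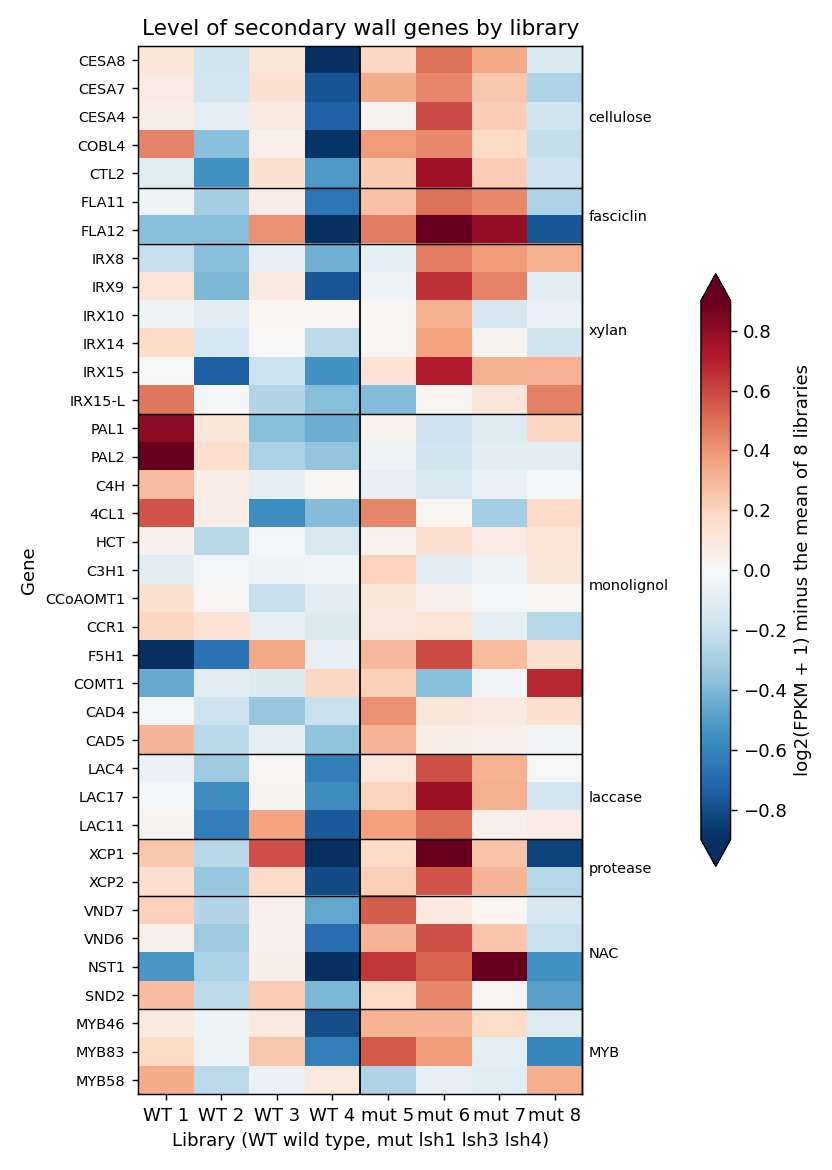
Level of each of the 37 genes in each library as the log2(FPKM + 1) difference from that gene's mean over the 8 libraries, with rows grouped by role. Wild-type replicate 4 is low and mutant replicate 6 high in most of the cellulose, fasciclin, xylan, laccase and protease rows, and wild-type replicate 1 is high in the PAL rows.

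Floral organ genes also differed between libraries of 1 genotype. AP3, PI and AG, which mark floral organs from the early stages on, summed to 52.6, 112, 76.9 and 173 FPKM in wild type and to 104, 39.3, 58.1 and 187 in the mutant. Wild-type replicate 4 and mutant replicate 8 had the highest sums and, within their genotypes, the lowest CESA sums (12.6 and 21.2 FPKM). Mutant replicate 6 had the lowest floral sum and the highest CESA sum (36.3 FPKM). With the mean log2 level of these 3 genes as a covariate, a setting chosen after the data were seen, 16 of the 37 genes were higher at an unadjusted limma p under 0.05, against 11.2% of all genes, and 0 were called (1.45% of all genes were called higher).

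Photosynthesis genes had higher means in the mutant, with overlapping libraries. All 11 photosynthesis genes of the list had positive values (median log2 fold change 0.43), 0 of them called, 0 without overlap and 6 at an unadjusted limma p under 0.05 (6.91% of all genes were). Their summed level ran from 9750 to 16020 FPKM in wild-type libraries, against 13986 to 18047 in mutants, and none was at 0 in any library. The mean log2(FPKM + 1) of the list was 9.82 in wild-type libraries against 10.3 in mutants. As a covariate it therefore overlaps with genotype, and the fit cannot fully separate them. With the mean of that list as a covariate, also chosen after the data were seen, CAD4 alone of the 37 genes (1 gene) was higher at an unadjusted limma p under 0.05 (3.06% of all genes were), 25 of the 37 values were positive, and the median was 0.11. Under it the log2 fold change was 0.38 for IRX15, 0.30 for IRX8, 0.14 for CTL2, 0.21 for LAC4 and for LAC17, 0.25 for FLA11, 0.12 for MYB46 and 0.046 for XCP2.

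**Figure D4:**
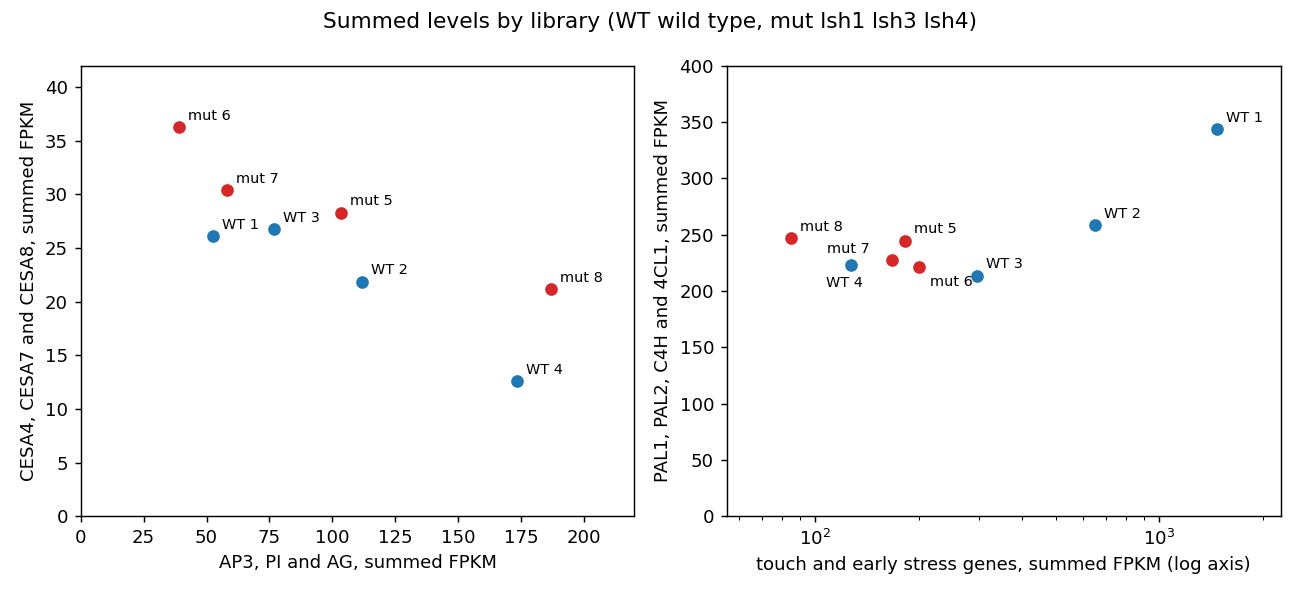
Left, summed FPKM of CESA4, CESA7 and CESA8 against that of AP3, PI and AG in each library. Right, summed FPKM of PAL1, PAL2, C4H and 4CL1 against that of 11 touch and early stress genes (log axis). Wild-type replicate 4 and mutant replicate 8 lie at the right of the first panel, and wild-type replicate 1 stands apart at the upper right of the second.

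Other vascular and tissue markers were read in the same fit. Of 7 procambium and cambium genes, 4 had positive and 3 negative values (median 0.02), with 0 called. At an unadjusted limma p under 0.05, 1 was higher (ATHB8) and 2 lower (TMO5 and CLE41), against 6.91% and 5.62% of all genes. ATHB8, a factor of procambial cells, had a log2 fold change of 0.26 (limma adjusted p = 0.365). TMO5, a factor of early vascular cells, had 57.1 ± 8.73 FPKM in wild-type libraries against 38.8 ± 5.51 in mutants, and CLE41, the peptide that maintains the cambium, 73.9 ± 2.38 and 60.0 ± 5.76. Their mutant libraries all lay below wild type (limma adjusted p = 0.170 and 0.177), as was so for 3.74% of all genes. The authors' deposited table lists both, with log2 fold changes of -0.56 and -0.30. It lists 1.77% of the genes tested here as lower. The 6 phloem genes had a median log2 fold change of 0.10 with 0 called and 0 at an unadjusted p under 0.05. Of the 7 meristem and young flower genes tested, 6 had negative values and 1 a positive value (median -0.20), opposite in sign to most of the wall genes. None was called, and 1 was lower at an unadjusted limma p under 0.05, against 5.62% of all genes. That gene was STM, which marks the meristem named in the labels, with 76.8 to 98.6 FPKM in wild-type libraries against 62.1 to 69.0 in mutants, and no overlap (log2 fold change -0.37, limma adjusted p = 0.145). The authors' deposited table lists STM with a log2 fold change of -0.38 and an adjusted p of 0.00745. WUS and CLV3 did not exceed 1.70 FPKM. The part of these markers in the wall gene values was not tested. Of 8 tapetum and pollen wall genes, LAP6 and TKPR1 were tested, and A9, AMS, MS2, LAP5 and ACOS5 stayed at or below 0.499 FPKM.

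A wider list of 53 other secondary wall, lignin and xylem genes had 52 in the table and 40 tested. None was called in either direction (limma, Benjamini-Hochberg). At an unadjusted p under 0.05, 3 were higher (KNAT7, TED7 and CAD9) and 1 lower (WRKY12), of 40, which is near or below the shares of all genes (6.91% higher and 5.62% lower), with 27 positive and 13 negative values and a median of 0.12. KNAT7 (AT1G62990), a homeodomain factor of the secondary wall network, had 2.35, 1.62, 1.52 and 1.19 FPKM in wild type and 3.05, 3.46, 2.78 and 2.73 in the mutant. No mutant library reached down to wild type, and the log2 fold change was 0.60 (SE 0.16, limma adjusted p = 0.182). The authors' deposited table gives KNAT7 a log2 fold change of 0.86 and an adjusted p of 0.0283. TED7, a gene known from differentiating tracheary elements, had 11.9 ± 2.93 FPKM in wild-type libraries against 16.8 ± 1.15 in mutants (log2 fold change 0.49, limma adjusted p = 0.234).

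The flavonoid branch draws on the same early steps as the monolignols. Of 7 genes tested, 2 had positive and 5 negative values (median -0.14), with 0 called and 0 at an unadjusted limma p under 0.05. CHI had 64.9 ± 10.5 FPKM in wild-type libraries against 55.0 ± 6.73 in mutants (limma adjusted p = 0.513), and F3H 135 ± 38.3 and 112 ± 22.1 (limma adjusted p = 0.691). Wild-type replicate 1 was the highest wild-type library for 6 of the 7.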

How the data were processed

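RNA levels came from the authors' deposited table of FPKM (22281 genes, 8 libraries), per the file headers. Per the submitters' processing notes, the authors used RSEM, DESeq2 and TAIR10, with no version named. Their aligner and any filter are not known here. The values being FPKM, a count model was not run. FPKM hides depth: the steps between low values settled it for 3 libraries only, at 1.22, 1.36 and 0.99 times wild-type replicate 1 for mutant replicates 6, 7 and 8, and no counting interval is given. FPKM sums ran from 826022 to 906962, and genes at 0 from 1233 to 2461 per library, most in mutant replicate 8. A second deposited table gives the authors' log2 fold changes, p-values and adjusted p-values, per the file headers; that the authors made it with DESeq2 is presumed from its column names.

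Here, limma 3.58.1 in R 4.3.3 (mean-variance trend, 2-sided) was fitted to log2(FPKM + 1) of 17706 genes with a mean of 1 or more, with Benjamini-Hochberg adjustment over all of them at 0.05; that scale understates changes of low genes. The code was tested on simulated data. Groups and replicate numbers came from sample titles. The 43 genes and the 9 comparison lists were chosen with earlier results of these data known. Values in every library were to be given, per role, for called genes, genes in the authors' table, genes without overlap, the gene with the smallest p and the most abundant gene; in 3 comparison lists, for the 2 genes with the smallest p. Values of CESA4, CESA7, CESA8, PAL1, PAL2, F5H1 and XCP1 and of other genes outside that rule were added after their values were seen. The alternatives changed the pseudocount (0.1, 0.5), the filter (none, or a mean of 5) or the scaling (TPM, quantile, median of ratios), used robust moderation or weighted libraries, or left out 1 library, plus 2 covariates chosen after seeing the data.

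Promoter windows of 250 bases were read from the RefSeq genome TAIR10.1 and its own annotation, in which 43 of 43 codes matched; no position comes from the deposited files. Plots used matplotlib 3.10.9 in Python 3.11.15.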

Additional observations from a re-analysis of the deposited data

Results flagged for a closer look

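Among the 37 tested genes, 74 groups of 4 libraries were checked for a library standing apart, and 1 had one, where chance gives about 1 in 20. CAD4 had 31.8 FPKM in mutant replicate 5, while the other mutant libraries had 25.4 to 26.3. The gap was 0.856 of the whole range, above the critical value for 4 samples. Without that library the log2 fold change of CAD4 was 0.30, against 0.37 with it.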

How the results depend on the processing

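The count of 0 genes called in either direction, of the 37 and of the 40 other pathway genes, held in the settings run except 2. With library weights, 14 of the 37 were called higher and 9 of the other pathway genes, but so were 1265 of all genes (7.14%), and the weights ran from 0.29 to 4.55, with wild-type replicate 2 and mutant replicate 7 at 4.55 and 4.38. The 14 were XCP2, IRX9, LAC4, NST1, CTL2, CAD4, IRX15, F5H1, FLA11, HCT, IRX8, LAC17, FLA12 and VND6. With the AP3, PI and AG covariate, 1 other pathway gene, WRKY12, was called lower. The cause of these moves was not tested.

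Of the 37, the number higher at an unadjusted p under 0.05 was 9, and it ran from 3 (without mutant replicate 6, where 7.27% of all genes were) to 13 (without wild-type replicate 3, 8.28%, or mutant replicate 8, 6.71%) when libraries were left out. It was 4 without wild-type replicate 2 (4.76%) or mutant replicates 5 (5.44%) or 7 (6.04%), 5 if wild-type replicate 4 was left out (6.1%) and 12 if it was replicate 1 (6.27%). The median of 0.33 ran from 0.15 (without wild-type replicate 4) to 0.43 (without mutant replicate 8), and CAD4 from 0.30 to 0.43. The signs that turned were those of MYB58, at 0.025 with library weights and between -0.19 and 0.034 over the libraries left out (0.034 without wild-type replicate 1, 0.014 without mutant replicate 5), and of IRX14, at -0.038 with the green tissue covariate. The pseudocount of 0.1 raised IRX8 to 0.82. IRX8, IRX15, NST1 and MYB46 were not tested at a mean FPKM of 5 or more. No paired analysis was possible because the groups share no replicate number. With 4 libraries a group and FPKM without counts, differences of the low genes rest on few fragments of unknown number. These include the NAC and MYB genes, IRX8 (mean 1.76 FPKM over the 8 libraries) and IRX15 (2.40 FPKM).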

Other observations

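Some ratios between neighbours in the pathway differed across libraries. PAL1 was 0.804, 0.827, 0.793 and 0.802 times PAL2 in wild type and 0.899, 0.848, 0.848 and 1.04 times in the mutant, so that the genotypes did not overlap although neither gene passed the test. F5H1 amounted to 5.44%, 7.60%, 17.5% and 12.2% of C4H in wild type and to 16.9%, 21.8%, 16.6% and 14.5% in the mutant, with wild-type replicate 3 inside the mutant range. CAD9, a relative of CAD4 and CAD5, was the most abundant gene of the wider list, with 538 ± 95.2 FPKM in wild-type libraries against 705 ± 66.2 in mutants (limma adjusted p = 0.284), and its genotypes did not overlap. The ratios and CAD9 were picked after their values were seen, and the ratios were not tested.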
